A study of Mus musculus with 10 samples.

Results

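Tmlhe, the gene of the enzyme trimethyllysine dioxygenase, was followed over 10 one-colour microarrays of mouse adipose tissue and cultured brown adipocytes. The gene was chosen for its values on these arrays and for its place as the first enzyme of carnitine synthesis. It was measured by 1 of the 59709 probes, with 1 spot per array, and was identified through the RefSeq transcript accession that the files give the probe. Because the choice rested on these values, the levels of Tmlhe are described here and none of its differences was tested.

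The enzyme sits in mitochondria and needs iron and 2-oxoglutarate. It hydroxylates trimethyllysine that is released when proteins carrying this modified residue are broken down, and later steps turn the product into carnitine. Carnitine carries long-chain fatty acids across the inner mitochondrial membrane, where they are oxidised. Brown fat burns fatty acids for heat, and white fat stimulated through beta-adrenergic receptors can take up some of that character.

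The study profiled long non-coding RNAs, with an array that also carries coding transcripts, and all material was labelled wild type. Brown adipocytes in culture were taken at days 0, 3, 5 and 7 of differentiation, with 1 array per day and thus no replicate. White fat came from chow-fed mice given CL316,243 (a beta-adrenergic agonist) at 1 mg/kg by daily intraperitoneal injection for 7 days (2 arrays, called CL white fat below). Brown fat and white fat came from chow-fed mice given saline on the same schedule (2 arrays each). The labels call the 2 arrays of a tissue group biological replicates and do not say how many mice went into each. The white fat depot, the age of the mice and the origin of the cultured cells are not stated in the labels.

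Levels are the log2 processed signal of the spot relative to the 75th percentile of its array, so that 0 is the signal that 75% of the probes do not exceed. The share of probes well above background was 55.2% to 78.3%. The arrays of a pair correlated over all probes at r = 0.939 for CL white fat, 0.980 for brown fat and 0.983 for saline white fat. In the CL pair 35.0% of probes lay at least 2-fold apart, against 8.86% in brown fat and 4.42% in saline white fat. CL replicate 1 was also the brightest array, with a 75th percentile signal of 585, against 213 to 419 on the other 9. Of the markers fixed for checking the labels, only Gk and a pair of chemokine genes had a probe carrying their symbol. Gk, the glycerol kinase gene of brown adipocytes (1 of 8 brown markers), was at 0.59 and 0.80 in brown fat, against -1.79 and -1.67 in saline white fat. In CL white fat Gk was at -1.10 on both arrays, and in the cells it was at -0.27, -0.84, -0.94 and -0.41 on days 0, 3, 5 and 7. The labels of the cells and of white fat could therefore be checked against no further marker: 0 of 5 white adipocyte, 0 of 6 general adipocyte and 0 of 6 stromal markers had a probe with a symbol.

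Tmlhe was highest in the cultured cells. Its level was 0.92 on day 0, 0.61 on day 3, 1.41 on day 5 and 1.47 on day 7. In CL white fat it was 0.01 on replicate 1 and -1.57 on replicate 2. In brown fat it was -1.33 and -1.82, and in saline white fat -2.24 and -2.42. All 4 cell arrays lay above all 6 tissue arrays, as they did for 13% of the probes detected on every array, and CL replicate 1 stood between the cells and the other 5 tissue arrays. CL replicate 2 lay inside the range of brown fat, and both saline white fat arrays were the lowest of the series.

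**Figure D1:**
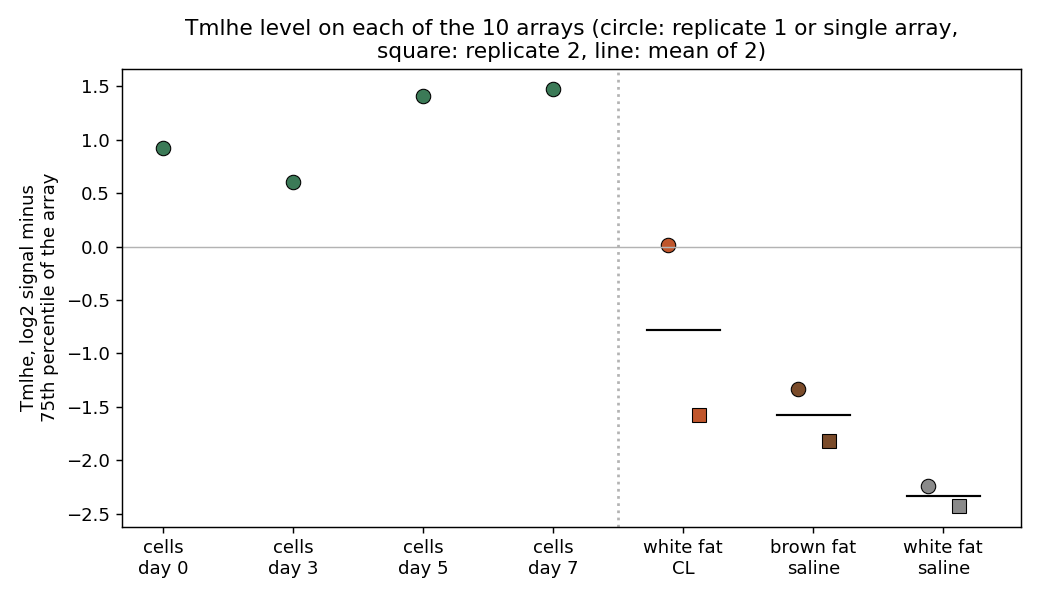
Level of Tmlhe on each of the 10 arrays, as log2 processed signal minus the array's 75th percentile. Each point is 1 array, and bars mark the means of the groups of 2. The cell arrays lie between 0.61 and 1.47, saline white fat lies at -2.24 and -2.42, and the arrays of CL white fat are 1.59 apart.

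By group the order ran from day 7 and day 5 through day 0 and day 3 to CL white fat at -0.78 ± 1.12, brown fat at -1.57 ± 0.35 and saline white fat at -2.33 ± 0.13 (mean ± SD, n = 2 arrays each). Several neighbours in that order could not be separated. Days 7 and 5 were 0.06 apart, and days 0 and 3 were 0.31 apart, less than the 0.49 between the arrays of brown fat. CL white fat and brown fat overlapped. Brown fat and saline white fat did not overlap, and their means were further apart than the arrays of either pair. For 32.1% of probes, too, both brown fat arrays were above both saline white fat arrays.

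The processed signals show how close to background the tissue values lay. Tmlhe gave a signal of 631.8 on day 0, 575 on day 3, 1117 on day 5 and 978 on day 7. It gave 591 and 79.0 on the arrays of CL white fat. Signals were 85.0 and 76.7 in brown fat, and 65.3 and 63.7 in saline white fat. Tmlhe thus divided into 5 bright arrays and 5 dim ones, and CL replicate 1 was the bright array among the tissues. The scanner software's own error on each of these signals was 10% to 12%.

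Every array called the spot well above background, and none called it saturated or an outlier. Negative control spots, which should bind no transcript, give a second yardstick. On the cell arrays, 0 of 1120 to 1141 negative control spots were as bright as Tmlhe, and on CL replicate 1, 0 of 1117 were. On CL replicate 2, 5.32% of negative control spots were at least as bright. In brown fat 7.83% and 9.22% were, and in saline white fat 5.11% and 5.00%. On the dim arrays the probe therefore lay near the 95th percentile of spots without a target, whose signal was 88.6 on CL replicate 2, 113 on both brown fat arrays, and 73.3 and 58.8 in saline white fat. Differences among these 5 arrays are differences close to that background. By this yardstick brown fat stood lower than saline white fat, the reverse of their order by level.

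**Figure D2:**
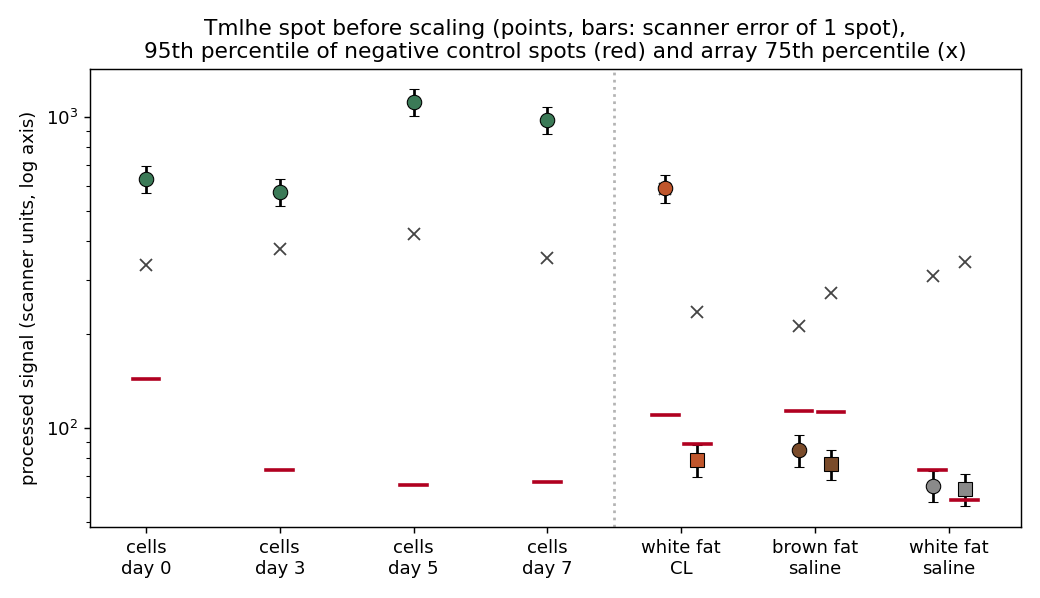
Processed signal of Tmlhe on each array (log axis), with the scanner software's error, with the 95th percentile of the negative control spots (red line) and the 75th percentile of all probes (cross) of the same array. The cross of CL replicate 1, at 585, lies behind its point. The signal is 575 to 1117 in the cells and 591 on CL replicate 1, and on the other 5 tissue arrays it is 63.7 to 85.0, near the negative controls.

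A probe with 1 spot has no spread of its own within an array, but 3 genes whose probes were printed 20 times show what it can be. Tbp, a general transcription factor gene, had a median spot signal of 340 to 1607 over the arrays, and its spots varied with an SD of 0.0599 to 0.104 on the log2 scale. Ldhal6b, a lactate dehydrogenase-like gene, was dim at 20.1 to 118, and its spots had an SD of 0.169 to 0.386. For Gk, at 94.2 to 469, the SD was 0.0668 to 0.402. On the saline white fat arrays Tmlhe, at 65.3 and 63.7, lay between these 2 genes. Ldhal6b was at 34.4 and 36.8 there, with an SD of 0.211 and 0.201. Gk was at 94.2 and 112, with an SD of 0.259 and 0.232. The 0.18 between the saline white fat arrays is thus no larger than the SD of the spots of either gene within 1 of these arrays.

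The comparison of CL white fat with saline white fat asks how the agonist changes white fat. Both CL arrays lay in slide column 2, and the saline arrays of brown and white fat in column 1. Agonist and slide column therefore cannot be told apart in either comparison of CL white fat. Tmlhe was 1.55 higher in CL white fat on the log2 scale, a 2.94-fold difference (SE 0.55, from a limma fit to the 6 tissue arrays). The single pairings of a CL array with a saline array ran from 0.67 to 2.44. The arrays of the groups did not overlap, as also for 12.6% of the probes, which were higher on both CL arrays than on both saline arrays. Of the 43542 probes in the fit, 2.31% lay at least as far apart between these groups in either direction, and 0.586% were at least as high in CL white fat. The size of the difference rests on CL replicate 1: it was 2.35 from that array alone and 0.76 from CL replicate 2 alone.

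The arrays of CL white fat disagreed about Tmlhe. Replicate 1 was 1.59 higher than replicate 2, a 3.01-fold difference after scaling and a 7.48-fold difference in processed signal. In that pair 11.9% of probes were at least as far apart in either direction, and 6.89% were higher on replicate 1 by at least as much. Tmlhe was 0.49 apart in the brown fat pair, where 29.0% of probes were at least as far apart, and 0.18 apart in the saline white fat pair, where 71.0% were. The distance within the CL pair is about as large as the 1.55 between CL and saline white fat. The summed level of Ccl21b and Ccl21c, chemokine genes of lymphoid stroma and 2 of 8 immune markers, was 7.16 on CL replicate 1 and 8.20 on CL replicate 2, against 8.77 and 8.49 in saline white fat. The genes Ppia, B2m, Hprt and Actb were also lower on CL replicate 1, at 8.69, 8.65, 6.73 and 6.62. On CL replicate 2 they were at 9.68, 9.68, 7.48 and 7.63. After scaling, a lower level on replicate 1 was thus seen for these genes as well as for the chemokine genes. Before scaling all of them were brighter on replicate 1, whose 75th percentile signal was 585, against 235 on replicate 2. Tbp was higher on replicate 1 also after scaling, at 1.45 on replicate 1 and 0.66 on replicate 2. Gk was at the same level on both CL arrays. The part of cell composition or of array brightness in the Tmlhe difference was not tested.

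In tissue pieces, a lower level can come from fewer cells of a type or from less RNA per cell, and these cannot be told apart here. Tmlhe was 0.76 higher in brown fat than in saline white fat (SE 0.55), a 1.69-fold difference. Single pairings of a brown fat array with a saline white fat array ran from 0.42 to 1.10. Higher values on both brown fat arrays were also seen for 32.1% of probes, and 44.8% of probes lay at least as far apart between the groups in either direction. The difference between brown and white fat was thus ordinary in size for these arrays. It also depends on the scaling. The brown fat signals of 85.0 and 76.7 were set against array 75th percentiles of 213 and 271. The saline white fat signals of 65.3 and 63.7 were set against 309 and 342. The Tmlhe difference was 1.22 with scaling to Ppia, B2m, Hprt and Tbp, but these genes were not all level between the tissues. Hprt was at 5.98 and 6.08 in brown fat, against 7.09 and 7.20 in saline white fat. Tbp was at 0.65 and 0.94 against 1.54 and 1.25. B2m was at 8.91 and 9.19 against 9.38 and 9.18, and Ppia at 9.32 on both arrays against 9.24 and 9.20. The summed Ccl21b and Ccl21c level was 5.45 and 6.71 in brown fat, below the 8.77 and 8.49 of saline white fat, and its part in the result was not tested.

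Between CL white fat and brown fat, Tmlhe was 0.79 higher in CL white fat (SE 0.55), a 1.73-fold difference. The pairings ran from -0.25 to 1.84, since CL replicate 2 lay between the brown fat arrays, and 35.5% of probes lay at least as far apart. Without CL replicate 1 the difference was 0.00, and without CL replicate 2 it was 1.59. It was 0.47 with scaling to Ppia, B2m, Hprt and Tbp, the lowest of 6 scaling and background alternatives. The 3 tissue comparisons share arrays, and each pair of them has a group in common.

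**Figure D3:**
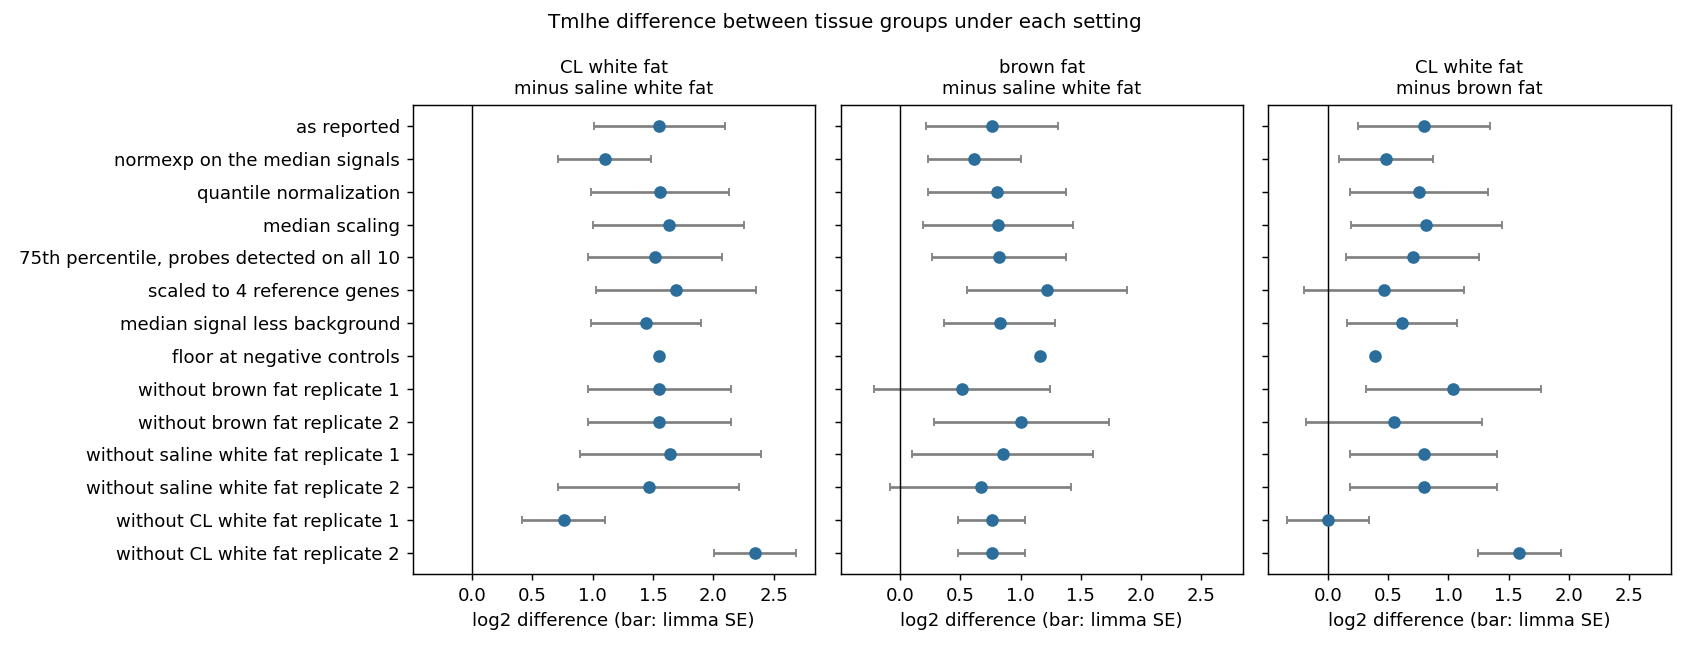
Differences of Tmlhe (log2) between the tissue groups under each scaling, background correction and left-out array. Each point is 1 setting, and bars are the limma SE, which the setting floored at the negative controls does not have. In that setting both brown fat arrays, CL replicate 2 and saline white fat replicate 1 stand at the level of control spots and not of Tmlhe. CL white fat minus saline white fat lies between 0.76 and 2.35, and CL white fat minus brown fat is at 0.00 without CL replicate 1.

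During differentiation, the question was how the level moved from undifferentiated cells to day 7. Relative to day 0, Tmlhe was 0.31 lower on day 3 (-0.31, or 0.805-fold), 0.49 higher on day 5 (1.41-fold) and 0.55 higher on day 7 (1.46-fold). The largest step was the one between days 3 and 5, at 0.80, and the step to day 7 was 0.06. With 1 array per day none of these values has a replicate check. Many probes moved as far: 63.2%, 57.9% and 40.7% of the probes were at least as far from day 0 on days 3, 5 and 7. Scaling to Ppia, B2m, Hprt and Tbp put day 3 at 0.08 above day 0, so the direction of the day 3 value depends on the scaling, while under all 6 scaling and background alternatives day 5 was 0.42 to 0.93 and day 7 was 0.40 to 0.87 above day 0.

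Set beside the tissues, the cells averaged 1.10 and the tissues -1.56, a difference of 2.67. Among the 29478 probes detected above background on each array, 0.902% were at least as much higher in the cells. The lowest cell array, day 3, was 0.59 above CL replicate 1 and 1.94 above the higher brown fat array. Day 7 cells were 3.05 above the mean of brown fat. Because both brown fat signals and 4 of the 6 tissue signals lay below the 95th percentile of the negative control spots, folds against them are better read as bounds. With such signals raised to that percentile, day 7 was at least 5.90-fold (2.56 on the log2 scale) above brown fat. The cells were at least 5.46-fold above the tissues. Both bounds are tied to the scaling and background used for the levels. Without raised signals, day 7 over brown fat was 2.43 with scaling to Ppia, B2m, Hprt and Tbp. It was 2.23 with another background correction (normexp). Before scaling between arrays, day 3 lay 0.04 below CL replicate 1 on the log2 scale (-0.04). With scaling to Ppia, B2m, Hprt and Tbp it lay 0.06 above it. The summed Ccl21b and Ccl21c level was 1.63 to 1.97 in the cells, against 5.45 to 8.77 in the tissues. The cell arrays were scanned apart from the tissue arrays, so cell culture and scan cannot be told apart.

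The other genes of the pathway could not be followed in the same way. Of 5 carnitine synthesis genes, Tmlhe was the only 1 with a probe carrying its symbol. Among carnitine transporters 0 of 7 had one, among carnitine acyltransferases, which load fatty acids onto carnitine, 0 of 6, and among other 2-oxoglutarate dioxygenases 0 of 29. Most probes of this array are given without a gene symbol, so these genes were not analysed here.

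Tmlhe lies on chromosome X, and 18 genes close to it in the RefSeq table were listed, of which 3 had a probe with a symbol. They were chosen by position and not by value. Spry3 belongs to the sprouty family of inhibitors of growth factor signalling. It was at -0.65, -0.86, -0.65 and -0.41 on days 0, 3, 5 and 7, at -3.68 and -2.92 in CL white fat, -3.38 and -3.70 in brown fat, and -3.13 and -2.71 in saline white fat. On CL replicate 1 and brown fat replicate 1 it was not well above background. Spry3 was thus higher in all 4 cell arrays than in any tissue array, by 2.61 between the means. The same order was seen for 13% of the probes detected on every array, a set that does not include Spry3. All 6 tissue signals of Spry3 lay below the 95th percentile of the negative controls. With these raised to it the cells were at least 2.19-fold higher, a bound tied to the scaling and background used for the levels.

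Zf12 is listed as a transcribed pseudogene and lies within the span of Tmlhe. It was at 3.38, 3.04, 3.25 and 2.53 on days 0, 3, 5 and 7, at 2.10 and 1.71 in CL white fat, 1.61 and 1.67 in brown fat, and 2.15 and 1.96 in saline white fat. Its cell arrays also lay above every tissue array, by 1.18 (2.27-fold) between the means, as for 13% of the probes detected on every array. Unlike Tmlhe, Zf12 was highest on day 0 and lowest on day 7 of the cell arrays. Vamp7, which encodes a SNARE protein of vesicle fusion, was at 5.21, 3.44, 3.68 and 3.81 in the cells, 3.44 and 2.94 in CL white fat, 2.91 and 2.78 in brown fat, and 2.66 and 3.09 in saline white fat. Its day 3 level and that of CL replicate 1 were equal to 2 decimals, so the cells and tissues overlapped, with a difference of 1.06 (2.09-fold) between the means.

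Between the tissues, 0 of the 3 neighbours was called by limma at a Benjamini-Hochberg adjusted p under 0.05 in any comparison, and 0 of the 9 tests had an unadjusted p under 0.05. Over all probes tested, limma called 10.4% between brown and saline white fat, 0% between CL and saline white fat, and 3.49% between CL white fat and brown fat. For brown fat over saline white fat, where Tmlhe was 0.76 higher, Spry3 differed by -0.62 (SE 0.41, limma adjusted p = 0.350). Zf12 differed by -0.41 (SE 0.35, limma adjusted p = 0.472) and Vamp7 by -0.03 (SE 0.38, limma adjusted p = 0.967). For CL over saline white fat, the neighbours differed by -0.38 (Spry3), -0.15 (Zf12) and 0.31 (Vamp7), each with a limma adjusted p of 1.00. For CL white fat over brown fat they differed by 0.24, 0.26 and 0.35 in the same gene order, with limma adjusted p of 0.774, 0.702 and 0.630. Some of these signs turn with the scaling: with the 4 scaling genes, brown over saline white fat was 0.05 for Zf12 and 0.43 for Vamp7, and CL white fat over brown fat was -0.09 for Spry3 and -0.06 for Zf12.

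**Figure D4:**
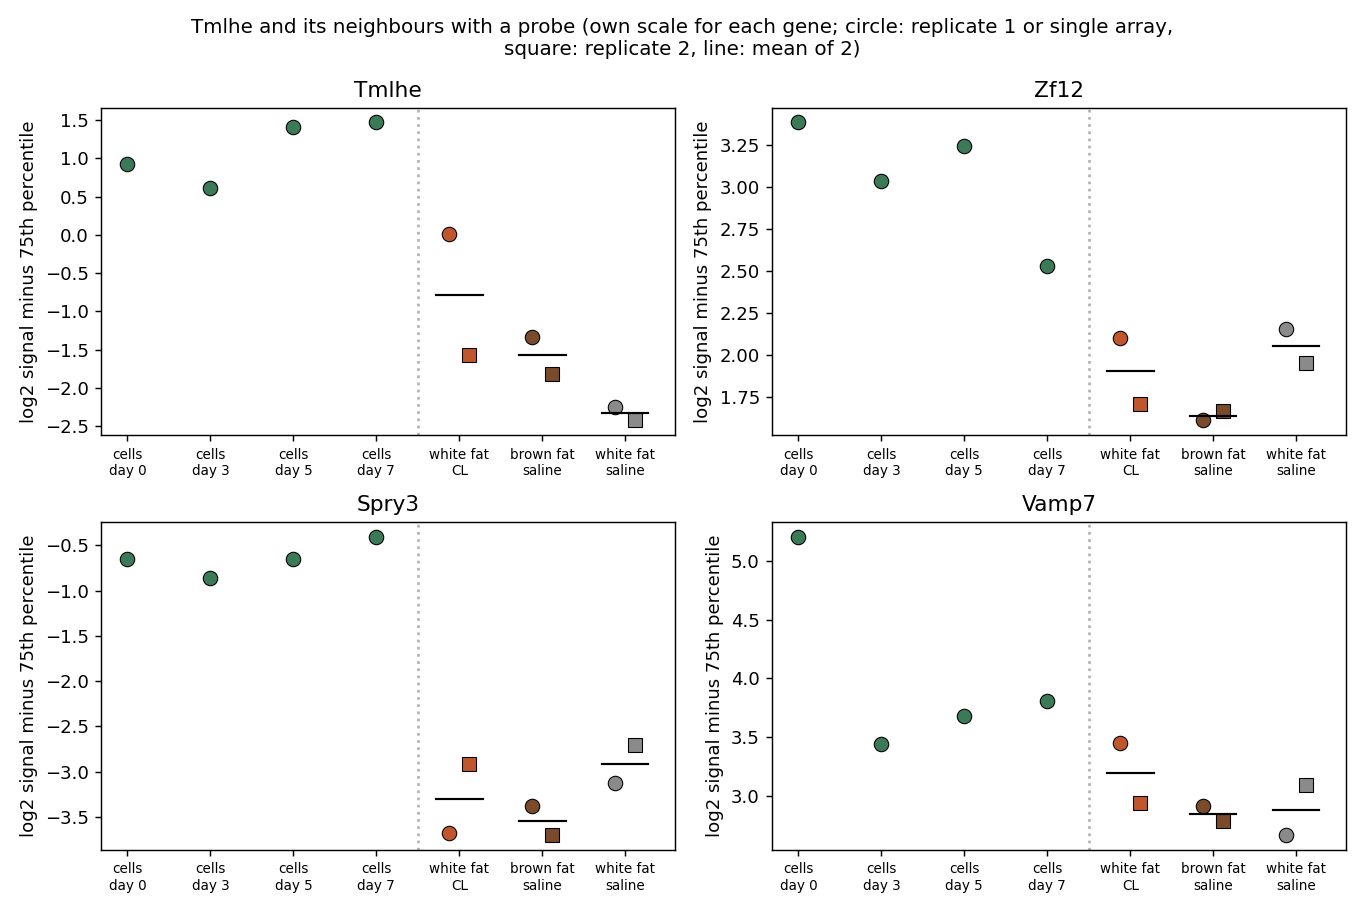
Levels of Tmlhe and of the 3 neighbouring genes with a named probe on each array, as log2 processed signal minus the array's 75th percentile. Each point is 1 array. Spry3 and Zf12 lie higher in all 4 cell arrays than in any tissue array, as do 13% of the probes detected on every array. Levels are read within a gene, since probes differ in brightness.

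Likeness to Tmlhe was measured as Pearson's r of the levels over the 10 arrays, among probes well above background on all of them. The points share arrays, scans and scaling, and most of the spread of Tmlhe is between cells and tissues, so r is given as a description. Among 77 probes with a gene symbol, Tfrc was the most like, with r = 0.879. Tfrc encodes the transferrin receptor, which brings iron into cells. It was at 6.88, 7.46, 8.02 and 8.04 on days 0, 3, 5 and 7, at 5.96 and 6.35 in CL white fat, 6.07 and 6.43 in brown fat, and 5.20 and 5.40 in saline white fat. Its lowest arrays were those of saline white fat, as for Tmlhe. In CL white fat Tfrc was lower on replicate 1 (5.96) than on replicate 2 (6.35), whereas Tmlhe was higher on replicate 1.

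Next came the ribosomal protein gene Rpl13a (r = 0.837), the neighbour Zf12 (0.803), the nuclear RNA-binding protein gene Nono (0.757) and the neighbour Vamp7 (0.734). The 3 most like of 91 transcript-accession probes without a symbol had r of 0.840, 0.837 and 0.812. Among the 77 probes with a symbol, the lowest r were those of Gm20822 on chromosome Y, at -0.949, and Btbd35f4 on chromosome X, at -0.948. On all 4 cell arrays both probes lay below the 95th percentile of the negative control spots, so their levels in the cells are close to background. Over the 6 tissue arrays alone, r was 0.411 for Tfrc, -0.086 for Rpl13a, 0.091 for Zf12, 0.143 for Nono and 0.744 for Vamp7, so for the first 4 it was lower than over all 10 arrays. Gm20822 and Btbd35f4 kept a low r there, at -0.778 and -0.844. Over all 29477 probes compared, r ran from -0.989 to 0.968 with a median of 0.152, and 120 (0.407%) reached 0.9.

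**Figure D5:**
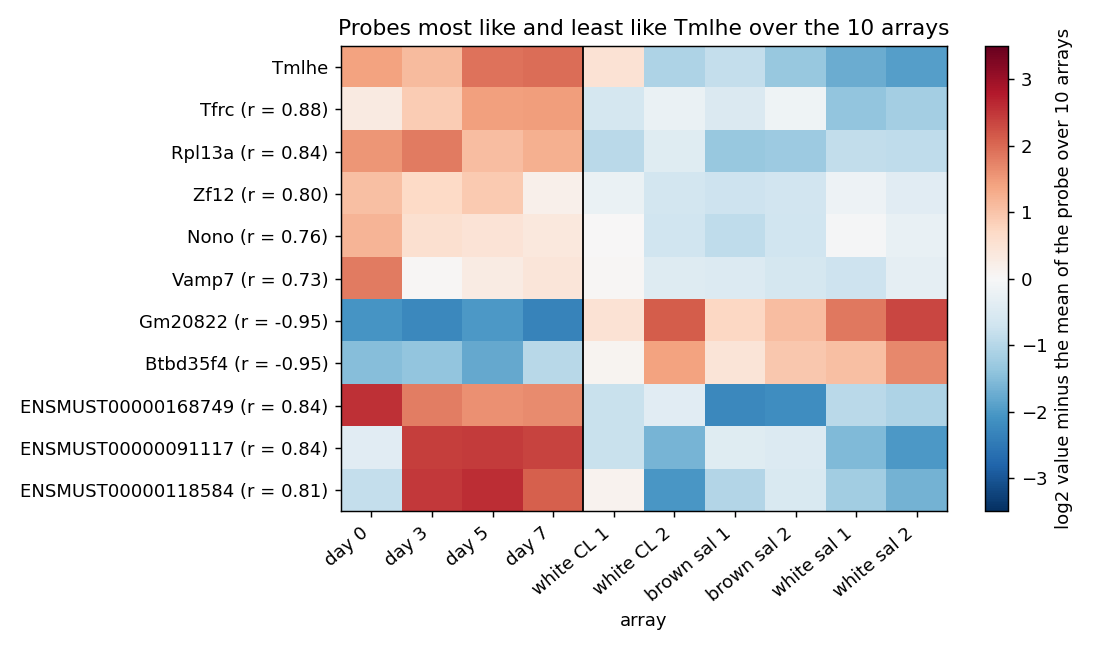
Levels of Tmlhe and of the probes most and least like it on each array, as log2 level minus the mean of the same probe over the 10 arrays, from blue (below) to red (above). Rows are probes with their r, and the line divides cells from tissues. Tfrc (r = 0.88) is above its mean on all 4 cell arrays, Gm20822 and Btbd35f4 are below theirs there, and Tmlhe is above its mean on the cell arrays and CL replicate 1.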

How the data were processed

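Arrays were grouped by their titles. The deposited files are scanner output, with intensity values written by Agilent's Feature Extraction, version 11.0.1.1 per the file headers and 9.1 per the submitters' processing notes: a background-subtracted processed signal with its error, median spot and background signals, and flags. The authors' deposited value table (log2 values, 18997 probes) lists no Tmlhe probe and was not used. The tools were limma 3.58.1 and R 4.3.3. Negative controls (20 probes, 1200 spots) and outlier spots were left out, spots of a probe were averaged, and log2 signals were scaled to the array's 75th percentile. The limma fit used group means on 6 tissue arrays, with probes above background on both arrays of a group or more (43542) and Benjamini-Hochberg adjustment. Residual degrees of freedom were 3, and prior ones 4.46. The fit was tested on simulated data. Shares of probes whose groups do not overlap were taken over the probes with a value on every array compared. The number of arrays limits the precision.

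Tmlhe and the lists of genes were chosen with earlier results of these data known. The genes named were Tmlhe, every carnitine, dioxygenase or marker gene with a probe, neighbours among up to 10 genes on each side, the 5 most and 2 least like named genes, and the 3 most like accession probes. Endothelial (0 of 2), muscle (0 of 3) and nerve (0 of 1) markers had no probe with a symbol. Names came from a RefSeq table (GRCm38.p6), which gave 116 of 123 RefSeq accessions 1 symbol and left 59593 probes without one. The array is annotated on mm9, so no coordinates are given. Replicate numbers were checked for pairing by the correlation of deviations from group means. It was -0.02 for brown fat and saline white fat, and -0.08 for brown fat and CL white fat. For saline and CL white fat it was 0.50, and whether these arrays share a pattern by replicate number was not tested. The numbers were not taken to pair the arrays in the main fit, and results with them as a block are given below.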

Additional observations from a re-analysis of the deposited data

How the results depend on the processing

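The direction of Tmlhe held in the tissue comparisons under 6 scaling and background alternatives and with each array left out, except that CL white fat over brown fat was 0.00 without CL replicate 1. Brown fat over saline white fat was 0.76, and became 1.22 with scaling to Ppia, B2m, Hprt and Tbp (0.51 to 1.01 with each array left out). Floored at the negative controls it was 1.16, which is no Tmlhe difference, since 3 of the 4 arrays then take the control percentile. Scaling to the 4 genes put the median of all probes at 0.34 for brown over saline white fat, against -0.12 with the 75th percentile. Relative to that median, Tmlhe was 0.88 higher either way, which is fixed in advance, since both scalings subtract 1 value per array. Background corrections can change this value: it was 0.52 with normexp and 0.79 with median signals less background. CL over saline white fat was 1.10 to 1.69 under the alternatives, and 0.76 to 2.35 with each array left out, the lowest without CL replicate 1. CL white fat over brown fat was 0.47 to 0.82, and 0.00 to 1.59 with each array left out. CL replicate 1 over replicate 2 was 1.09 with normexp correction and 2.08 with the 4 genes. Day 7 cells over brown fat was 2.23 with normexp, 2.43 with the 4 genes and 2.58 with median signals less background. With the floor it was 2.56, a bound only for the scaling and background used for the levels. With each brown fat array left out it was 2.80 to 3.29. The gap between the lowest cell and highest tissue array was -0.040 without scaling and 1.94 without CL replicate 1. The floor, median less background, and the comparisons of cells with tissues were chosen after seeing the data. For Tmlhe, normexp was planned on mean signals and run on median signals, since the files hold no mean signal.

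The 3 neighbours were called in no comparison under any setting run. Vamp7, brown over saline white fat, turned to 0.051 (quantile), 0.021 (median scaling), 0.027 (75th percentile of probes detected on all arrays), 0.43 (4 genes) and 0.012 (median less background), and ran from -0.24 to 0.18 with each array left out. Spry3 turned to 0.072 in that comparison and -0.24 in CL white fat over brown fat with normexp, and to -0.087 in the CL comparison with the 4 genes (-0.14 to 0.62 with each array left out). Zf12 turned to 0.047 (brown over saline white fat) and -0.062 (CL white fat over brown fat) with the 4 genes, and ran from -0.35 to 0.048 for CL over saline white fat with each array left out. The causes were not tested. Rpl13a had r = -0.086 over the tissue arrays.

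With the replicate number as a block, the SE of the Tmlhe differences was 0.44, against 0.55 without the block. The block moved the probes called by limma to 6212 (brown over saline white fat), 1 (CL over saline white fat) and 2189 (CL white fat over brown fat), against 4526, 0 and 1521 without it. Tmlhe differences stayed at 0.76, 1.55 and 0.79 in that order of comparisons.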

Other observations

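Among the 77 named probes well above background on all arrays, 18 had r of -0.9 or lower with Tmlhe, and 9 of these lay on chromosome Y, which holds 12 of the 77. Over all 29477 probes compared, 487 had such an r.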
